A study of Mus musculus with 30 samples.

Results

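The genes followed here are 10 genes of lipid droplets and of fatty acid use: *Plin2*, *Plin3*, *Pnpla2*, *Dgat1*, *Dgat2*, *Cpt1a*, *Angptl4*, *Pdk4*, *Acsl3* and *Acsl4*. They were taken by symbol from the 56941 genes counted, and each symbol matched 1 Ensembl gene. The cells were mHypoA-2/12 (clone Clu177), an immortalized line from the hypothalamus of adult mice, so that all groups are the same cell line. Cells received vehicle, which was 0.1% DMSO, or cannabidiol (CBD) at 0.325, 0.75, 1.5 or 3 µM in the same amount of DMSO, for 6 h or for 24 h. The treatment medium was DMEM with GlutaMAX, and the methods name serum only for the growth before it. The 30 libraries of 3′mRNA-Seq form 10 groups of 3. Nothing in the labels says that the 3 libraries of a group came from separate experiments, so the p-values measure the spread between these libraries.

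A lipid droplet is a core of triglycerides and sterol esters behind a coat of proteins, and cells fill it or draw on it as fatty acid supply and demand change. Fatty acids are first joined to coenzyme A. They then go into triglycerides, are freed again by lipases, or pass through the carnitine shuttle into mitochondria for oxidation. Several of these genes are known targets of the PPAR family of nuclear receptors, which bind fatty acids, and in the brain lipid droplets are best known from glia, with few in neurons.

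Each library held between 1839621 and 4420675 reads on genes. The deepest of the 3 vehicle libraries at 6 h was replicate 3, and it stood apart from the others. On the first principal component of the 6 h libraries it lay at 41.8, against −22.3 and −17.4 for the others, and 17.9% of its reads on the genome fell outside genes, against 21.4% and 20.8%. For the genes followed here, changes over the 4 doses at 6 h and calls that rest on the vehicle at 6 h are therefore given with and without it. No pair of libraries held the same values. Levels in CPM are reads on a gene scaled to that library's reads on the genes that passed the filter on low counts in the 30 libraries. On this scale, 6 of the 10 neuronal markers tabulated averaged over 10, while *Snap25* and *Rbfox3* were under 1. Of 10 hypothalamic peptides, 9 were under 1 CPM and 3 (*Cartpt*, *Hcrt* and *Trh*) had no read, and of 7 glial markers 5 were under 1 and 2 (*Aqp4* and *Olig2*) had no read. All 8 mesenchymal markers were over 10 CPM, with a summed level between 8270 and 10757. Of 6 adipocyte markers, 5 were under 1 CPM and *Lep* had no read, so the droplet genes were not accompanied by the usual markers of fat cells.

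Of the 10 genes, 9 passed the filter on low counts at 6 h (12012 genes in all), at 24 h (12118 genes) and in the 30 libraries together (12790 genes). *Pdk4* did not. Levels are given as CPM with the TMM factors of the 30 libraries. The kit makes 1 fragment per transcript, so these values are not divided by gene length. Because a culture dish gives 1 bulk RNA sample, fewer cells with a transcript and less transcript per cell cannot be told apart. A change was called where the FDR of the quasi-likelihood test of edgeR, adjusted over all genes tested, was under 0.1.

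After 6 h with CBD, *Plin2* was called lower than in the vehicle, and no other gene of those tested passed. *Plin2* (ENSMUSG00000028494, chromosome 4) encodes perilipin 2, the coat protein found on droplets of most cells and known to be degraded when it is not bound to one. In the 3 vehicle libraries its level was 169.6, 168 and 108 CPM. At 3 µM it was 82.4, 77.2 and 77.3, and at 1.5 µM it was 88.8, 81.6 and 87.0. All 6 of these treated libraries lay below the lowest vehicle library. For scale, 5.99% of all genes tested had every 3 µM library below every vehicle library at 6 h, and 5.44% did so at 1.5 µM. At 0.75 µM the values were 115, 110.1 and 76.9, and at 0.325 µM they were 84.7, 113 and 82.6. In both of these groups, at least 1 library lay above replicate 3 of the vehicle.

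**Figure D1:**
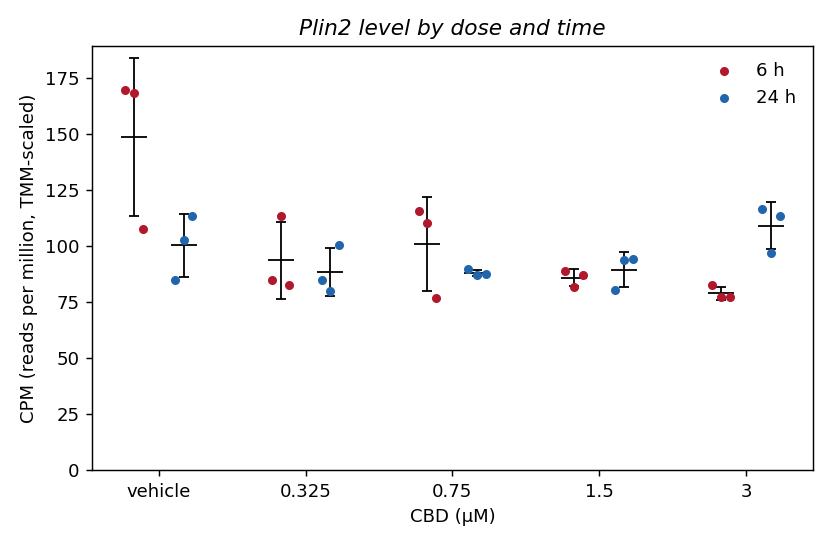
Level of *Plin2* in each library, in CPM with TMM factors, by CBD dose and time. Points are libraries, the horizontal bar is the mean and the whisker the SD of 3 libraries. At 6 h the vehicle holds the 2 highest values of all (169.6 and 168) and the 3 µM libraries lie between 77.2 and 82.4, while at 24 h the groups lie close together.

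The mean of *Plin2* was 148 ± 35.3 CPM in the 6 h vehicle and 79.0 ± 2.93 at 3 µM (SD, n = 3 each), a log2 fold change of −0.90 (standard error 0.18, 95% interval −1.27 to −0.52, FDR = 0.087 by edgeR). It was the 1 gene called among the 9 tested, where 0.05% of all genes were called at this dose. Against the same vehicle libraries, the log2 fold change was −0.78 at 1.5 µM (FDR = 0.13 by edgeR), −0.55 at 0.75 µM (FDR = 0.38) and −0.66 at 0.325 µM (FDR = 0.18). None of the 9 genes was called at these 3 doses, where 0.0999%, 0.0749% and 0.2% of all genes were called. Without replicate 3 of the vehicle *Plin2* was called at each of them, with −0.98 at 1.5 µM (FDR = 0.0042 by edgeR), −0.75 at 0.75 µM (FDR = 0.028) and −0.85 at 0.325 µM (FDR = 0.019). With the 4 doses pooled, the mean was 89.8 ± 14.5 CPM (SD, n = 12) and the log2 fold change of *Plin2* was −0.72 (standard error 0.14, 95% interval −1.01 to −0.44, FDR = 0.014 by edgeR). Here again *Plin2* was the 1 gene called of 9, with 0.749% of all genes called.

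The size of this fall rested on the vehicle libraries. Without replicate 3 of the vehicle, the log2 fold change of *Plin2* over the 4 doses was −0.92 (FDR = 0.00023 by edgeR) and at 3 µM −1.10 (FDR = 0.0011). Without replicate 1 or replicate 2 of the vehicle, that over the 4 doses was −0.61 and −0.62 and the call was lost (FDR = 0.101 and 0.131). At 3 µM alone the call was less firm still: it was kept without replicate 3 of the vehicle, replicate 3 of 0.75 µM or replicate 1 or 2 of 0.325 µM, and lost without any single one of the other 11 libraries of 6 h (FDR up to 0.36 by edgeR). The 2 vehicle libraries with the most *Plin2* were also the 2 shallowest of the 30, with 305 and 315 reads on the gene, against 177 to 388 over all libraries. The part of depth in the result was not tested.

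No dose dependence of *Plin2* was detected among treated cells at 6 h. The 3 µM group differed from the 3 lower doses by −0.23 on the log2 scale (95% interval −0.55 to 0.08, FDR = 0.91 by edgeR). Neither this comparison nor the test for any difference among the 4 doses called a gene, so the background was 0% in both. An unadjusted p under 0.05 by edgeR was found for 624 genes (5.19%) and 452 genes (3.76%). These shares are near and below that threshold itself. DESeq2 called 0 genes in both as well.

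The promoter of *Plin2* is shown because this was the 1 gene of the set called against vehicle. That of *Plin3* is shown because it is the other coat gene of the set and was called over time in CBD-treated cells. RefSeq gives 250 bases before and 50 after the start of each gene on GRCm38.p6, for 7 of the 10 genes. Capitals mark 4 motifs, searched on both strands: the nuclear receptor half-site AGGTCA, the E-box CACGTG, the GC box GGGCGG and the CCAAT box CCAAT. The 2 sequences, on the minus strand of chr4:86670010-86670309 and of chr17:56290462-56290761, are as follows.
Plin2: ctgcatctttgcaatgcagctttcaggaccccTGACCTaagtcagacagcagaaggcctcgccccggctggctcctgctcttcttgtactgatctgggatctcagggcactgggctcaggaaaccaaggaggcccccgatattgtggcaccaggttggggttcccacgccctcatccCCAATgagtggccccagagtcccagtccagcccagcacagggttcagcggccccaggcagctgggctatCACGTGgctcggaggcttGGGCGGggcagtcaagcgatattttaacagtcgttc
Plin3: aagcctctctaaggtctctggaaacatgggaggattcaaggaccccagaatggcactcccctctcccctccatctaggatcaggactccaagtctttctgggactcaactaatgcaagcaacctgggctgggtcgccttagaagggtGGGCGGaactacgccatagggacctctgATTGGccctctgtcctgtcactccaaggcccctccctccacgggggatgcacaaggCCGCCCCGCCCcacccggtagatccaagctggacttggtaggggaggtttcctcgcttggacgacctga

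The *Plin2* sequence holds a half-site at −218 from the start, on the opposite strand, and an E-box at −4. Of all 32851 promoters in the table, 16.3% hold the half-site and 7.15% the E-box. The full PPAR element, written as AGGTCANAGGTCA with N for any base, is in 0.0396% of them and in neither of these sequences. The *Plin3* sequence holds 3 GC boxes, of which 2 overlap by 1 base, and no half-site or E-box. A GC box is in 35.7% and a CCAAT box in 37.4% of all promoters, and both sequences hold each. The RefSeq start of *Plin3* lies inside the gene as GENCODE draws it, so the window is that of 1 transcript.

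At 24 h the level of *Plin2* was 85.0, 102 and 113 CPM in the vehicle. It was 84.7, 80.1 and 100.4 at 0.325 µM, 89.5, 86.8 and 87.7 at 0.75 µM, and 80.4, 93.9 and 94.0 at 1.5 µM. The vehicle overlapped each of these groups. At 3 µM it was 116, 96.9 and 114, and 2 of these 3 libraries were the highest of the 24 h set. No dose differed from vehicle: the log2 fold changes of *Plin2* were −0.19, −0.20, −0.16 and 0.13 from the lowest to the highest dose, and −0.10 over the 4 doses together (95% interval −0.32 to 0.11, FDR = 0.92 by edgeR).

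Within the treated cells of 24 h, *Plin2* was higher at 3 µM (109 ± 10.5 CPM, SD, n = 3) than at the 3 lower doses (88.6 ± 6.67, n = 9). The log2 difference was 0.32 (standard error 0.11, FDR = 0.087 by edgeR), and the groups overlapped. It was the 1 gene called of the 9, near the background of 10.5% of all genes called in this comparison, and not a result about these genes as a set. The share of reads outside genes moved the same way: 21.4% ± 0.487 at 3 µM, against group means between 19.4% and 19.7% at the lower doses. The 24 h vehicle was at 21.4% ± 0.714. Comparisons of the lower doses with vehicle at 24 h therefore hold the same difference in this share. With that percentage as a covariate the *Plin2* difference was 0.27 and the call was lost (FDR = 0.66 by edgeR). It was also lost without any single one of 9 of the 15 libraries of 24 h, namely replicate 1 or 3 of 3 µM, replicate 1 or 2 of 1.5 or 0.325 µM, or any replicate of 0.75 µM, with a difference between 0.25 and 0.32 (FDR up to 0.43 by edgeR). The test for any difference among the 4 doses at 24 h called none of the 9 genes and 1.93% of all genes, with *Plin2* at an FDR of 0.38.

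*Plin3* (ENSMUSG00000024197, chromosome 17) encodes perilipin 3, a coat protein that is stable in the cytosol and moves onto new droplets. At 6 h its level was 106, 130.2 and 80.5 CPM in the vehicle. The treated libraries of 6 h lay between 77.8 and 110, with a median of 92.2, and overlapped the vehicle. The log2 fold change over the 4 doses was −0.19 (95% interval −0.46 to 0.08, FDR = 0.68 by edgeR) at 6 h and −0.02 (95% interval −0.22 to 0.19, FDR = 0.995) at 24 h. The change at 6 h was −0.36 without replicate 3 of the vehicle (FDR = 0.22 by edgeR). A change of *Plin3* with CBD was thus not called at either time, and its intervals were the narrowest of the 9 genes at both times.

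**Figure D2:**
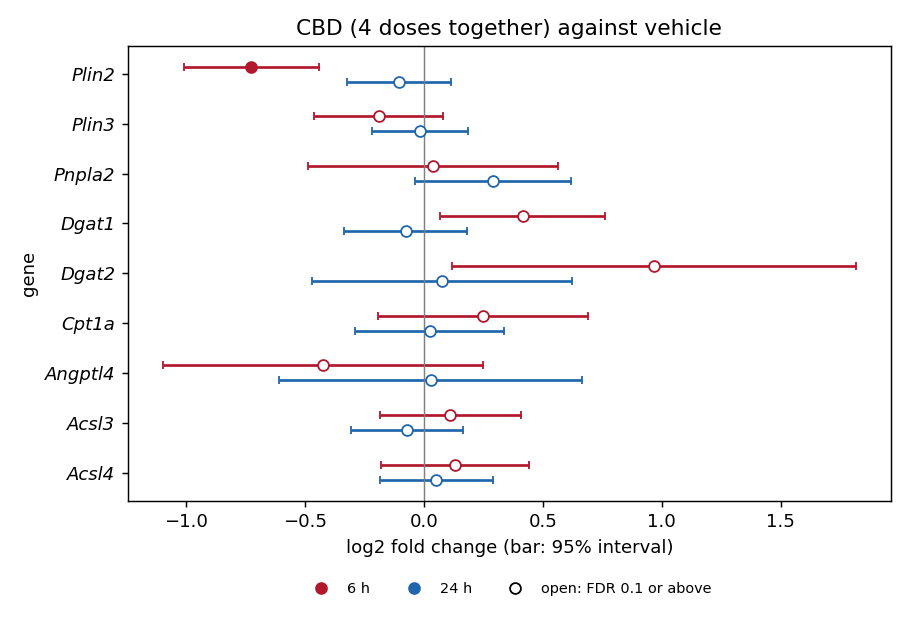
Log2 fold change of the 4 CBD doses together against vehicle at 6 h (red) and 24 h (blue) for the 9 genes tested, with 95% intervals. Filled points passed an FDR of 0.1 and open points did not. *Plin2* at 6 h (−0.72) is the 1 filled point, and the intervals of *Dgat2* and *Angptl4*, the genes with the fewest reads of the 9, are the widest.

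Among the enzymes, *Pnpla2* (ENSMUSG00000025509, chromosome 7) encodes ATGL, the lipase that takes the first fatty acid off a triglyceride. At 6 h it was at 22.8, 24.5 and 19.99 CPM in the vehicle and between 11.2 and 33.1 in the treated libraries, on both sides of the vehicle. Its 6 h change over the 4 doses was 0.04 on the log2 scale, and −0.05 without replicate 3 of the vehicle. At 24 h it was at 26.3, 24.5 and 23.6 in the vehicle, against 38.4, 35.2 and 28.5 at 0.325 µM and 36.0, 34.7 and 32.0 at 0.75 µM. All 6 libraries of these low doses lay above all 3 vehicle libraries, as did those of 7.11% and 8.5% of all genes. The log2 fold changes of *Pnpla2* were 0.45 (95% interval 0.05 to 0.85) and 0.45 (0.03 to 0.86), with FDRs of 0.55 and 0.61 by edgeR, so neither passed. At 1.5 µM (37.1, 20.7 and 29.7) and at 3 µM (27.5, 23.1 and 26.3) the libraries overlapped those of the vehicle.

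*Dgat1* (ENSMUSG00000022555, chromosome 15) and *Dgat2* (ENSMUSG00000030747, chromosome 7) encode unrelated enzymes that each add the last fatty acid of a triglyceride, and both had their lowest mean in the 6 h vehicle. *Dgat1* was at 31.7, 42.1 and 27.5 CPM in these libraries and at 44.7, 44.1 and 48.5 at 3 µM, with no overlap, as for 6.78% of all genes in that direction. Over the 4 doses its log2 fold change at 6 h was 0.42 (95% interval 0.07 to 0.76, FDR = 0.37 by edgeR), and it did not pass. Without replicate 3 of the vehicle this was 0.27 (FDR = 0.60). *Dgat2* was at 3.89, 5.34 and 5.28 CPM in the 6 h vehicle, from 7, 10 and 19 reads. Every library at 0.325, 0.75 and 1.5 µM lay above these, as did those of 5.75%, 6.59% and 6.15% of all genes, but at 3 µM the values were 15.3, 2.18 and 8.59, on both sides of the vehicle. Its log2 fold change over the 4 doses was 0.97 (95% interval 0.12 to 1.82, FDR = 0.40 by edgeR), and 1.05 without that library (FDR = 0.37). At 24 h the changes over the 4 doses were −0.08 for *Dgat1* and 0.08 for *Dgat2*, and neither passed.

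*Acsl3* (ENSMUSG00000032883, chromosome 1) and *Acsl4* (ENSMUSG00000031278, chromosome X) encode acyl-CoA synthetases. The product of *Acsl3* sits on nascent droplets, and that of *Acsl4* prefers polyunsaturated fatty acids and is known for its part in ferroptosis. *Acsl3* ranged from 49.5 to 91.7 CPM over all 30 libraries, and its change over the 4 doses was 0.11 (95% interval −0.18 to 0.41) at 6 h and −0.07 (−0.30 to 0.17) at 24 h on the log2 scale. Its 6 h change without replicate 3 of the vehicle was 0.06 (FDR = 0.92 by edgeR). *Acsl3* shares 244 exon bases with *Utp14b* on the same strand, which could divide or remove reads, and no other gene of the 10 overlaps another gene.

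*Acsl4* had the largest F for a difference among the doses at 6 h of the 9 genes, but did not pass the test. At 3 µM it was at 101, 100.4 and 93.2 CPM, at 1.5 µM at 60.8, 62.6 and 70.1, at 0.75 µM at 88.0, 90.0 and 83.1, and at 0.325 µM at 74.0, 52.5 and 76.0. The 3 µM libraries were all above all 9 libraries of the lower doses, a pattern of 0.758% of all genes. The order by dose was not steady, since the mean was 87.0 at 0.75 µM and 64.5 at 1.5 µM. The difference of 3 µM from the lower doses was 0.45 on the log2 scale (standard error 0.15, 95% interval 0.14 to 0.75), with an FDR of 0.91 by edgeR in a comparison that called no gene. In the vehicle *Acsl4* was at 52.8, 59.8 and 97.2, the last being replicate 3. Against all 3 the change at 3 µM was 0.46 (FDR = 0.59 by edgeR), and without replicate 3 it was 0.80 (FDR = 0.030). Over the 4 doses at 6 h it was 0.13 with that library (FDR = 0.84 by edgeR) and 0.47 without it (FDR = 0.14). At 24 h the libraries of 0.325 µM (67.1, 68.0 and 63.7) lay above those of the vehicle (58.9, 54.0 and 48.5), as for 7.11% of all genes. The log2 fold change of *Acsl4* was 0.29 (FDR = 0.60 by edgeR), so it was not called.

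**Figure D3:**
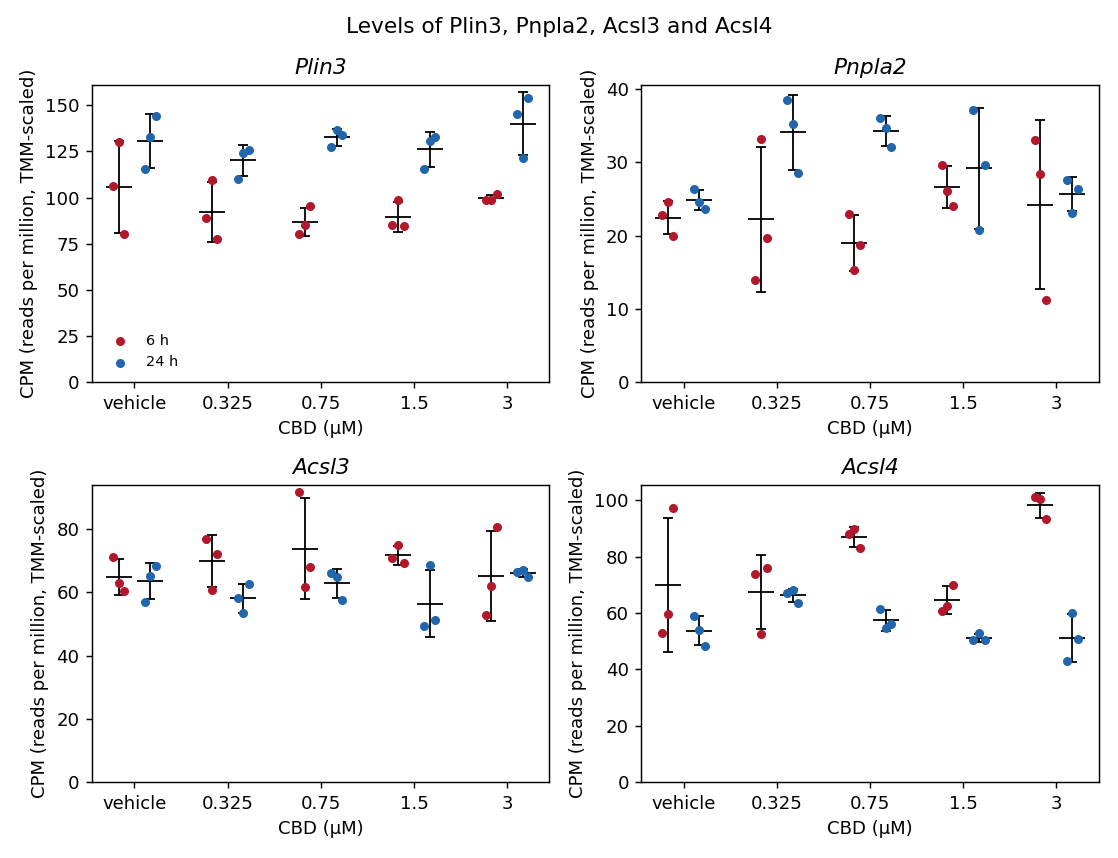
Levels of *Plin3*, *Pnpla2*, *Acsl3* and *Acsl4* in each library, in CPM with TMM factors, by CBD dose at 6 h (red) and 24 h (blue). Points are libraries, and bars and whiskers are the mean and SD of 3. *Plin3* is higher at 24 h at every CBD dose, and the mean of *Acsl4* at 3 µM is 98.2 at 6 h and 51.2 at 24 h.

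For the use of fatty acids, *Cpt1a* (ENSMUSG00000024900, chromosome 19) encodes the enzyme that commits them to the mitochondrion. It was at 23.4, 17.1 and 36.9 CPM in the 6 h vehicle, and the treated libraries of 6 h (21.7 to 43.6) overlapped them. Its log2 fold change over the 4 doses was 0.25 at 6 h (95% interval −0.19 to 0.69, FDR = 0.77 by edgeR) and 0.03 at 24 h (−0.29 to 0.34, FDR = 0.995). Without replicate 3 of the vehicle, the change at 6 h was 0.65 and still did not pass (FDR = 0.23 by edgeR). *Angptl4* (ENSMUSG00000002289, chromosome 17), a secreted inhibitor of lipoprotein lipase and a classical PPAR target, was low. It was at 8.34, 6.94 and 14.99 CPM in the 6 h vehicle and between 3.55 and 12.2 in the treated libraries, and its change over the 4 doses was −0.42 at 6 h (95% interval −1.10 to 0.25) and 0.03 at 24 h (−0.61 to 0.67). Without replicate 3 of the vehicle, the 6 h change was 0.03.

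*Pdk4* (ENSMUSG00000019577, chromosome 6), which encodes a kinase that turns off pyruvate dehydrogenase when fatty acids are burned, was near the limit of these libraries. It had between 0 and 6 reads per library and 59 reads in all 30. The 24 h vehicle held 6, 6 and 6 of these. These 18 reads are 1.78 CPM (exact Poisson interval 1.05 to 2.81, counting error only). In the 4 treated groups of 24 h the rate lay between 0.256 CPM (2 reads, interval 0.031 to 0.924) and 0.725 (6 reads, interval 0.266 to 1.58). The interval of the vehicle lay above those of 0.325, 0.75 and 3 µM and overlapped that of 1.5 µM. All 12 treated libraries of 24 h (0 to 1.24 CPM) lay below the 3 vehicle libraries (1.40 to 2.02), a pattern of 0.272% of the genes that passed the filter at 24 h, which *Pdk4* did not. With no filter on low counts, its log2 fold change over the 4 doses at 24 h was −2.09 with an FDR of 0.70 by edgeR, so it was not called. At 6 h all 5 groups had between 4 and 7 reads.

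**Figure D4:**
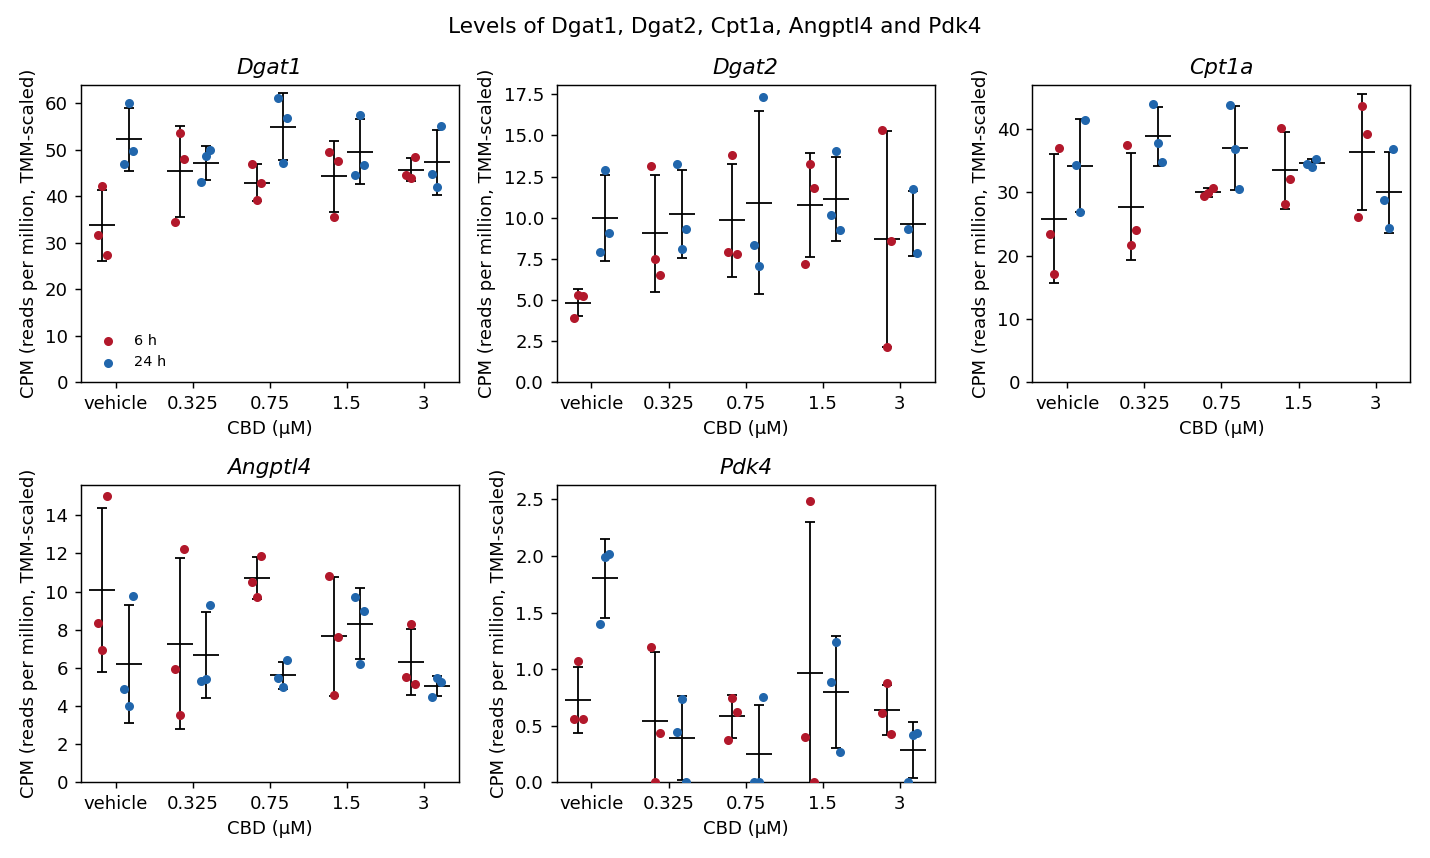
Levels of *Dgat1*, *Dgat2*, *Cpt1a*, *Angptl4* and *Pdk4* in each library, in CPM with TMM factors, by CBD dose at 6 h (red) and 24 h (blue). Points are libraries, bars and whiskers are the mean and SD of 3, and each panel has its own axis from 0. The 6 h vehicle has the lowest mean for *Dgat1* (33.8), *Dgat2* (4.83) and *Cpt1a* (25.8), and the highest *Pdk4* mean is that of the 24 h vehicle (1.80).

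At 24 h, none of the 9 genes was called against vehicle at 0.325, 0.75, 1.5 or 3 µM or over the 4 doses together, where 0.066%, 0.0825%, 0.0413%, 0.00825% and 0.107% of all genes were called. The median log2 fold change of the 9 genes over the 4 doses was 0.11 at 6 h and 0.03 at 24 h, beside −0.02 and −0.01 over all genes. The dose comparisons of each time share the same 3 vehicle libraries.

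More of these genes were called between the times than between CBD and vehicle, as was so for all genes. In the vehicle, where 26.7% of all genes were called between 24 h and 6 h, 3 of the 9 genes were: *Plin2* and *Acsl4* fell and *Dgat1* rose. *Plin2* went from 148 ± 35.3 to 100.2 ± 14.2 CPM (SD, n = 3 each), a log2 fold change of −0.56 (standard error 0.16, FDR = 0.011 by edgeR), or −0.74 without replicate 3 at 6 h (FDR = 0.0013). *Dgat1* went from 33.8 ± 7.55 to 52.3 ± 6.82 (log2 fold change 0.65, standard error 0.19, FDR = 0.011 by edgeR), and its 24 h libraries (47.1, 60.0 and 49.8) lay above all of those of 6 h. Without replicate 3 at 6 h its change was 0.51 (FDR = 0.092 by edgeR). *Dgat2* had no overlap either, in the same direction as 15.8% of all genes, but with a log2 fold change of 1.01 it did not pass (FDR = 0.11 by edgeR). The fall of *Acsl4* by 0.40 on the log2 scale (FDR = 0.088 by edgeR) rested on replicate 3 at 6 h, without which it was −0.05 (FDR = 0.90). Without that library *Cpt1a* passed, with a log2 fold change of 0.77 (FDR = 0.045 by edgeR), against 0.36 with it (FDR = 0.31).

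In the CBD-treated cells, which share no library with the vehicle comparison, 4 of the 9 genes were called between the times, where 53.6% of all genes were. The share is near that of all genes, so it says nothing particular of the 9. *Plin3* rose from 92.1 ± 9.74 to 130 ± 12.1 CPM (SD, n = 12 each). Its 12 libraries of 24 h (110.3 to 154) were all above its 12 of 6 h (77.8 to 109.6), as for 2.12% of all genes, and the log2 fold change was 0.49 (standard error 0.07, FDR = 9.0e-07 by edgeR). *Acsl4* fell by 0.47 on the log2 scale (standard error 0.08, FDR = 1.7e-05), from 79.3 ± 15.9 to 56.5 ± 7.65. *Pnpla2* rose by 0.41 (standard error 0.13, FDR = 0.011), from 23.01 ± 7.37 to 30.8 ± 5.72, and *Acsl3* fell by 0.21 (standard error 0.08, FDR = 0.036), from 70.2 ± 10.3 to 60.9 ± 6.68. For the last 3, libraries of the 2 times overlapped. *Plin2* was nearly level, at 89.8 ± 14.5 and 93.7 ± 11.7 (log2 fold change 0.06, 95% interval −0.10 to 0.23, FDR = 0.56). The treatment time is also the time in the treatment medium, so that these cannot be told apart.

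**Figure D5:**
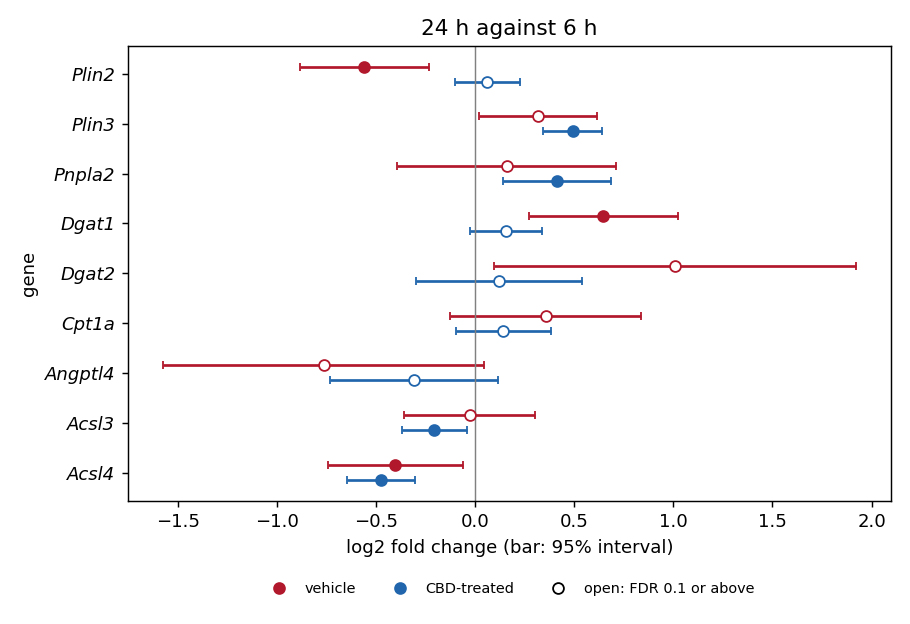
Log2 fold change of 24 h against 6 h in the vehicle (red) and in the CBD-treated cells (blue) for the 9 genes tested, with 95% intervals. Filled points passed an FDR of 0.1. *Plin3* (0.49), *Pnpla2* (0.41), *Acsl3* (−0.21) and *Acsl4* (−0.47) are filled in CBD-treated cells, and *Plin2* (−0.56), *Dgat1* (0.65) and *Acsl4* (−0.40) in the vehicle.

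The difference between the 2 changes over time was tested directly and none of the 9 genes passed, where 0.235% of all genes did. The 2 intervals that did not include 0 were those of *Plin2* (0.62, 95% interval 0.26 to 0.99, FDR = 0.25 by edgeR) and *Dgat1* (−0.49, 95% interval −0.91 to −0.07, FDR = 0.67). *Dgat2*, with few reads, had the largest estimate of the 9 and a wide interval (−0.89, 95% interval −1.89 to 0.11, FDR = 0.80). Without replicate 3 of the 6 h vehicle, that of *Plin2* was 0.82 and passed (FDR = 0.042 by edgeR). With the percentage of reads off genes as a covariate it was 0.76 and passed as well (FDR = 0.031). Whether the response of *Plin2* to CBD is called larger at 6 h than at 24 h thus depends on these choices.

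Ordered by their means, the 10 groups of *Plin2* ran from the 6 h vehicle (148 ± 35.3 CPM) and 3 µM at 24 h (109 ± 10.5) down to 1.5 µM (85.8 ± 3.74) and 3 µM (79.0 ± 2.93) at 6 h. Of the 9 steps between neighbours, 2 were larger than the larger SD of the pair: the first and the last. For *Acsl4*, highest at 3 µM at 6 h (98.2 ± 4.33) and lowest at 1.5 µM at 24 h (51.2 ± 1.52), 2 of 9 steps were. For *Dgat1* and *Acsl3* 1 step was, and for *Plin3*, *Pnpla2*, *Dgat2*, *Cpt1a*, *Angptl4* and *Pdk4* no step was, so most neighbours in these orders did not differ beyond their spread.

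The 9 genes did not move as 1 group. Over the 30 libraries, the 36 pairwise correlations of their log2 levels ran from −0.74 (*Plin3* and *Acsl4*) to 0.49 (*Plin3* and *Dgat1*), with a median of −0.04. The points share the library depth and the time groups. The genes most like *Plin2* over the 30 libraries were *Hmox1*, which encodes the inducible heme oxygenase, with a Pearson r of 0.80, *Mndal* (0.78) and *Tnp1* (0.78). Those most like *Plin3* were *Grina* (0.89), *Ctr9* (0.88) and *Ksr1* (0.88), and those most like *Acsl4* were *Stt3a* (0.88), *Rsl1d1* (0.85) and *Slc29a1* (0.83). These are descriptions of these libraries and include the difference between the times.

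The wider pathway was read from 9 lists of 100 further genes, all of them in the count files. No read at all was found for the droplet coat genes *Plin5*, *Cideb* and *Cidec*, and *Plin1*, the coat protein of fat cells, had 5 reads in all 30 libraries. A count of 0 over the libraries allows up to 3 reads. *Ppara*, the PPAR of liver and other tissues that burn fat, had 7 reads, while *Ppard* averaged 31.9 CPM. Of the enzymes, *Cpt1b* had 2 reads and *Acadvl*, the first enzyme of long-chain oxidation, 20. Of the 73 genes of these lists tested at each time, none was called against vehicle at any dose or over the 4 doses, at 6 h or at 24 h, and none in the 2 comparisons among doses at 6 h.

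Among the treated cells of 24 h, 8 of the 73 list genes (11%) were called between 3 µM and the lower doses, 4 higher and 4 lower, beside 10.5% of all genes. *Hadh*, of mitochondrial beta-oxidation, was at 34.5 ± 5.97 CPM at 3 µM and 56.0 ± 7.12 at the lower doses (log2 difference −0.68, FDR = 0.012 by edgeR), and *Lipe*, the hormone-sensitive lipase, was at 6.34 ± 1.75 and 13.3 ± 2.19 (−1.04, FDR = 0.023). *Cpt2* (−0.70) and *Fabp5* (−0.53) were lower too, and *Echs1* (0.53), *Pdha1* (0.43), *Acot2* (0.48) and *Aup1* (0.36) were higher. With the percentage of reads off genes as a covariate, none of the 8 was called. *Hadh* was also the 1 list gene (1.37%) called for a difference among the 4 doses at 24 h (FDR = 0.080 by edgeR). This share is below the 1.93% of all genes called in that test.

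Between the times, 20 of 76 list genes (26.3%) were called in the vehicle, 13 higher and 7 lower at 24 h, and 41 of 76 (53.9%) in CBD-treated cells, 28 higher and 13 lower. Both shares are near those of all genes. The peroxisomal list held 3 called genes in the vehicle and 4 in treated cells of 7 tested, all of them higher at 24 h. Of all genes, 26.7% and 53.6% were called, so the count in treated cells is near that share. The median log2 fold change of this list was 0.58 and 0.35, beside −0.03 and −0.01 over all genes. *Acox3* rose by 1.46 on the log2 scale in treated cells, while its call in the vehicle was lost in 3 of 35 alternatives (FDR up to 0.23 by edgeR). *Acaa1a*, the thiolase of peroxisomes, went from 27.2 ± 6.98 to 61.9 ± 5.92 CPM in the vehicle (log2 fold change 1.22, FDR = 8.3e-05 by edgeR) and from 34.2 ± 6.74 to 61.2 ± 9.50 in treated cells (0.85, FDR = 1.2e-08).

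Of the other coat and assembly genes, 5 of 9 were called over time in each set, beside 26.7% of all genes in the vehicle and 53.6% in treated cells. *Hilpda*, an inhibitor of ATGL that is induced by hypoxia and by fatty acids, fell by 0.70 in the vehicle (FDR = 0.00050 by edgeR) and by 0.43 in treated cells (FDR = 4.9e-06). *Plin4* rose by 1.28 and 1.01 (the call in the vehicle was lost without replicate 3 at 6 h, FDR = 0.21 by edgeR) and *Bscl2*, which encodes seipin of the sites where droplets form, rose by 0.76 and 0.53. *Fitm2*, which has a part in droplet budding, fell by 0.54 and 0.28, and *Aup1* fell by 0.40 and 0.29. In the vehicle each of these 2 calls was lost in 5 of 36 alternatives (FDR up to 0.26 for *Fitm2* and 0.28 for *Aup1* by edgeR). That of *Fitm2* in treated cells was lost in 1 of 36, with no filter on low counts. In the carnitine and beta-oxidation list, 3 of 20 rose and none fell in the vehicle, and 8 rose and 2 fell in treated cells, so fewer than the share of all genes in the vehicle and close to it in treated cells. Among those that rose was *Cpt1c*, a relative of *Cpt1a* known from the brain (0.79 and 1.004). Of the 9 PPAR regulators tested, 1 rose and 1 fell in the vehicle, and 3 rose and 1 fell in treated cells. *Rxra*, which encodes a partner of the PPARs, rose by 0.70 (FDR = 0.00063 by edgeR) and 0.69 (FDR = 5.7e-10). *Pparg*, the PPAR best known from fat cells, fell by 0.98 in treated cells, from 4.95 ± 2.40 to 2.37 ± 1.21 CPM (FDR = 0.0062 by edgeR). *Esrra*, which encodes an estrogen-related receptor, fell by 1.01 in the vehicle (FDR = 0.081), a call lost in 6 of 35 alternatives. The uncoupling gene *Ucp2*, a PPAR target, rose by 1.81 and 0.72. No list gene passed the test of a difference between the 2 changes over time.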

How the data were processed

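RNA of 30 cell samples was read by 3′mRNA-Seq (QuantSeq FWD). The deposited counts are whole reads per Ensembl gene, 1 table per library and not normalized. Per the submitters' processing notes and the methods, the authors checked reads with FastQC 0.11.9, trimmed them with Flexbar, mapped them with STAR 2.7.5c to GRCm39, counted them with HTSeq 1.99.2 and tested them with DESeq2. The strand setting of the counting is not given in the sources used here.

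Groups came from the treatment label. The 10 genes, the other lists and the comparisons were chosen with earlier results of these data known. The analysis used edgeR 4.0.16 in R 4.3.3, with filterByExpr on the groups, TMM and the quasi-likelihood F-test. P-values were adjusted (Benjamini-Hochberg) across every gene tested, with a threshold of 0.1. Each time was fitted with its 15 libraries, and changes over time with all 30. The biological coefficient of variation of the 6 h fit was 0.179. Standard errors are the log2 fold change over the root of F. A low-count gene has few reads behind it and so a wide interval. Correlations and principal components used log2 levels with 2 as prior count. The steps were tested on simulated counts.

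Alternatives were DESeq2 1.42.0, RLE factors, no filter, at least 10 counts in every library, the percentage of reads off genes as a covariate, other sets of samples in the fit, and each library left out in turn. All 10 genes are named in the text, and from each other list at most 4 genes called per comparison, by smallest p. *Aup1* and *Fitm2* over time, the genes at few reads, and the levels of *Ppard*, *Acadl* and *Hadha* were chosen after their values were seen. Symbols (51948 of 56941 genes) and overlaps came from GENCODE M21, whose assembly (GRCm38) precedes that of the counts, and promoters from RefSeq on GRCm38.p6. Some genes of the wider lists are not reported here by name.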

Additional observations from a re-analysis of the deposited data

How the results depend on the processing

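The count of genes called of the 9 moved under some alternatives. At 0.325 µM for 6 h it was 0 and became 1 (*Plin2*) with no filter, with the percentage of reads off genes as a covariate and with all 30 libraries in the fit. At 0.75 µM it became 1 with the covariate, and at 1.5 µM it became 1 with DESeq2, no filter, the covariate and all 30 libraries. At 3 µM it was 1 and became 0 with only the groups compared in the fit. Leaving out 1 library in turn gave 0 to 1 at 0.325, 0.75 and 1.5 µM (*Plin2*, without vehicle replicate 3 at all 3 doses), 0 to 2 at 3 µM, and 0 to 1 over the 4 doses together. The 2 at 3 µM were *Plin2* and *Acsl4*, without vehicle replicate 3. At 3 µM the call was lost without any single one of 11 of the 15 libraries of 6 h, with an FDR up to 0.36, while the *Plin2* log2 fold change stayed between −1.10 and −0.79 over all 15 of these fits.

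At 24 h, 3 µM against the lower doses gave 0 in place of 1 with no filter, the covariate and all 30 libraries, and 0 to 1 with 1 library left out. The difference between the changes over time gave 1 in place of 0 with the covariate, and 0 to 1 with 1 library left out. All other counts of the 9 kept within 1.5 times under every alternative run. *Plin3*, *Pnpla2* and *Acsl4* in treated cells and *Dgat1* in the vehicle kept their calls over time in all 36 alternatives. *Plin2* in the vehicle lost its call without replicate 1 of the 24 h vehicle (FDR = 0.101 by edgeR). *Acsl4* in the vehicle lost its call in 28 of 36, and *Acsl3* in treated cells in 4 of 36 (FDR up to 0.124). Of 3303 values, 96 changed sign, none with an unadjusted p under 0.05 in the main fit. Of the list genes called over time, 11 of 20 in the vehicle and 32 of 41 in treated cells kept their calls in every alternative. No paired analysis was possible because the labels number the libraries from 1 to 30 through all groups, and the replicate numbers used here only follow that order. *Dgat2*, *Angptl4* and *Pdk4*, with few reads, had the least power.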
